A study of Mus musculus with 11 samples.

Results

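Liver at the 2 ends of a developmental course, mid-gestation (E14.5) and young adulthood, postnatal day 56 (P56), was compared on whole-genome microarrays, across all genes measured, including those that were alike at both ends. The 6 arrays were chosen by their titles, 3 biological replicates a stage, from 11 arrays that also cover E18.5 and P5. The E14.5 samples were mouse liver from embryos (day 14 in the labels, with hepatoblasts as the cell type), and the P56 samples were liver of young adult mice with hepatocytes as the cell type. No treatment or engineered allele was given for either group. The protocol named whole livers as well as isolated cells, so which of these an E14.5 array carried is not settled, and sex was not given. The methods name C57BL/6 for the embryonic livers from which cells were isolated, and no strain is given for the P56 livers in the sources used here. Each array carried a liver sample in the Cy5 channel against a common adult mouse liver RNA in the Cy3 channel, without dye swaps. The values below are log2 ratios of Cy5 over Cy3, so 0 means the level of the adult reference, and differences are P56 minus E14.5.

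The liver changes its work between these stages. The fetal liver is the main site of blood formation, and its hepatoblasts, the dividing precursors of hepatocytes and bile duct cells, lie among red cell precursors. The adult organ consists largely of resting hepatocytes, which handle nitrogen, sugar, lipids, bile acids and foreign compounds and secrete most plasma proteins.

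Each array held 43379 gene spots, of which 22027 to 23957 were well above background in Cy5 at E14.5, against 23079, 16790 and 20131 for P56 replicates 1, 2 and 3. Log2 ratios correlated at 0.987 to 0.990 among the E14.5 arrays and at 0.827 to 0.937 among the P56 arrays, so the spread was wider at P56. The X-linked silencing RNA Xist was at 0.08, 3.19 and 0.14 on the E14.5 arrays and at -0.06, 4.04 and 5.18 on the P56 arrays, in replicate order. The Y-linked Eif2s3y was at 0.66, -3.05 and 0.62, and at 1.53, -1.20 and -2.02. E14.5 replicate 2 and P56 replicates 2 and 3 were thus high in Xist and low in Eif2s3y, and neither gene was called between the stages. The file headers give the same scan time for all E14.5 arrays and another for all P56 arrays, so scan and stage cannot be told apart. The p-values set the difference between the stages against the spread of replicates within a stage, pooled over all arrays of the series. They cannot separate a stage difference from a scan difference.

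The cell types named in the labels were checked by their markers. Of 7 hepatoblast markers 6 were lower at P56, the exception being Sall4 (higher by 0.75), and Dlk1 was not well above background on any P56 array. All 8 hepatocyte markers were higher at P56. The 6 erythroid markers tested were all well above background on all 3 E14.5 arrays and were all lower at P56, where 1 of them was not above background on any array. All 6 macrophage markers and all 5 endothelial markers were also above background on every E14.5 array. RNA of several cell types beside hepatoblasts was therefore measured at E14.5. In such bulk RNA, fewer cells of a type and less RNA per cell cannot be told apart, and the part of these cells in the other differences was not tested.

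Most of the transcriptome differed between the ends of the course. Of 16704 genes tested, 6043 (36.2%) were higher at P56 and 5801 (34.7%) were lower (limma, adjusted p under 0.05), which makes 70.9% called in all. At least 2-fold differences were seen for 2542 genes upward (15.2%) and 2358 downward (14.1%). The 3 arrays of each stage did not overlap for 12640 genes (75.7%). The median difference over all genes was 0.04, with quartiles at -0.55 and 0.56, so a group of genes has to be read against that even background. The split depended on the scaling: with median centring (each array scaled to a median of 0, without loess), 2450 genes were higher and 8234 lower, and the median of all genes lay at -0.33. Loss of detection was more frequent on the P56 arrays: 1218 genes were well above background on every E14.5 array and on no P56 array, against 291 for the reverse. P56 replicates 2 and 3 had fewer spots above background (16790 and 20131) than any E14.5 array, and the part of array sensitivity in these counts was not tested. Without P56 replicate 2, 5701 genes were higher and 5691 lower.

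**Figure D1:**
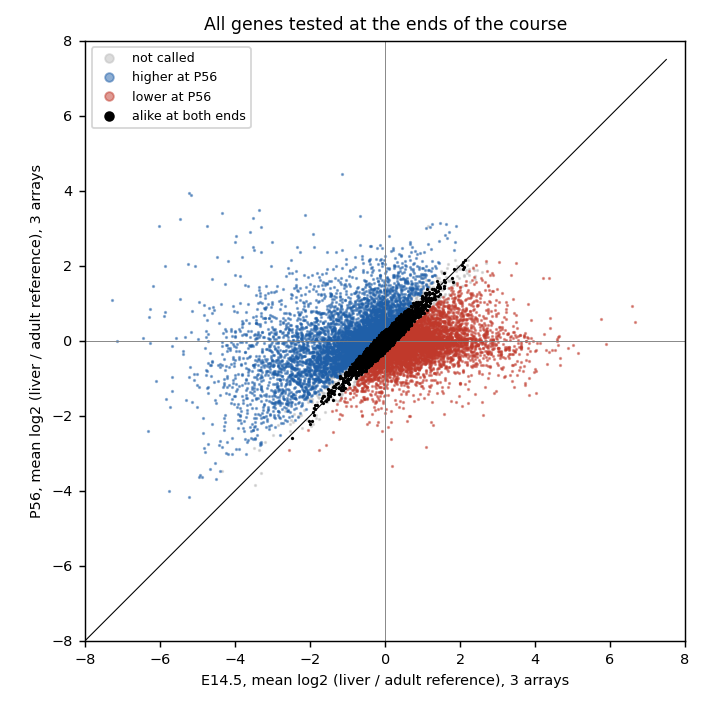
Mean log2 ratio to the adult liver reference at P56 (vertical axis) against E14.5 (horizontal axis), 3 arrays each, for all 16704 genes tested, with genes higher, lower, alike and not called in separate colors. The cloud is wider along the E14.5 axis (SD over genes 1.266) than along the P56 axis (0.651).

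Plasma and transport proteins of the hepatocyte were among the 10 named genes with the largest rise. Mup1, a major urinary protein that carries pheromones, was at -5.33, -5.31 and -7.48 at E14.5 and at 3.85, 2.41 and 2.94 at P56 (difference 9.10 ± 0.52 SE, limma adjusted p = 5.33e-08). Its spot was saturated on all P56 arrays, and the Cy5 channel gave a level at least 67.2-fold higher. The probe lies at chr4:60420781-60421004 (mm7), in a family of near-identical genes, so Mup1, Mup5 (8.71) and Mup3 (6.72) are uncertain as single genes. The arrays of the 2 stages were far apart for each of them.

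Akr1c6, a steroid-reducing enzyme probed at chr13:4341660-4341719 (mm7), was at -6.91, -7.53 and -7.39 at E14.5 and at 0.80, 1.19 and 1.27 at P56 (difference 8.36 ± 0.17 SE, limma adjusted p = 2.17e-11). Its relatives Akr1c20 and Akr1c14 differed by 7.13 and 7.04. Slco1b2, which takes up bile acids and drugs from blood (chr6:141738135-141738194), went from -6.11, -6.34 and -6.16 to 1.48, 1.25 and 1.63, a difference of 7.66. In both genes the E14.5 arrays lay deep below the adult reference and the P56 arrays close to it or above. Nnmt, which methylates nicotinamide, and the lipogenic regulator Thrsp instead ended far above the adult reference. Nnmt was at 2.82, 3.80 and 3.87 at P56, and Thrsp at 3.33, 3.41 and 3.09.

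The 10 named genes with the largest fall included an embryonic globin, the main fetal plasma protein and several blood cell and cell cycle genes. Hbb-y, an embryonic beta-type globin probed at chr7:99909287-99909346 (mm7), was at 6.54, 6.51 and 6.93 at E14.5 and at 0.59, 0.51 and 0.42 at P56 (difference -6.16 ± 0.39 SE, limma adjusted p = 4.31e-08). Hemgn, a nuclear protein of blood precursors (chr4:46407937-46407996), was at 5.80, 5.89 and 6.02 and then at -0.11, -0.02 and -0.17. It was not well above background on any P56 array and was at least 141-fold lower there, although its 3 probes gave -6.0, -3.14 and -1.85. Such bounds were set in the Cy5 channel after loess and Aquantile scaling and are open to dye bias.

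Afp, the alpha-fetoprotein gene (chr5:90479870-90479929), was saturated at E14.5, with ratios of 6.79, 6.44 and 6.56 against 1.62, 0.79 and 0.39 at P56, so its difference of -5.66 rests on a saturated spot. The mitochondrial iron importer Slc25a37 (-5.30), the survivin gene Birc5 (-5.43) and the proliferation marker Mki67 (-5.30) were among the others. So were the membrane protein gene Itm2a (-5.18), the cystatin family gene Stfa1 (-5.14) and the imprinted zinc finger gene Plagl1 (-5.09). The blood stem cell factor Tal1 (-5.14) was not above background on any P56 array and was at least 62.9-fold lower in Cy5. The P56 arrays lay below every E14.5 array in each of them, as the choice of these genes required.

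**Figure D2:**
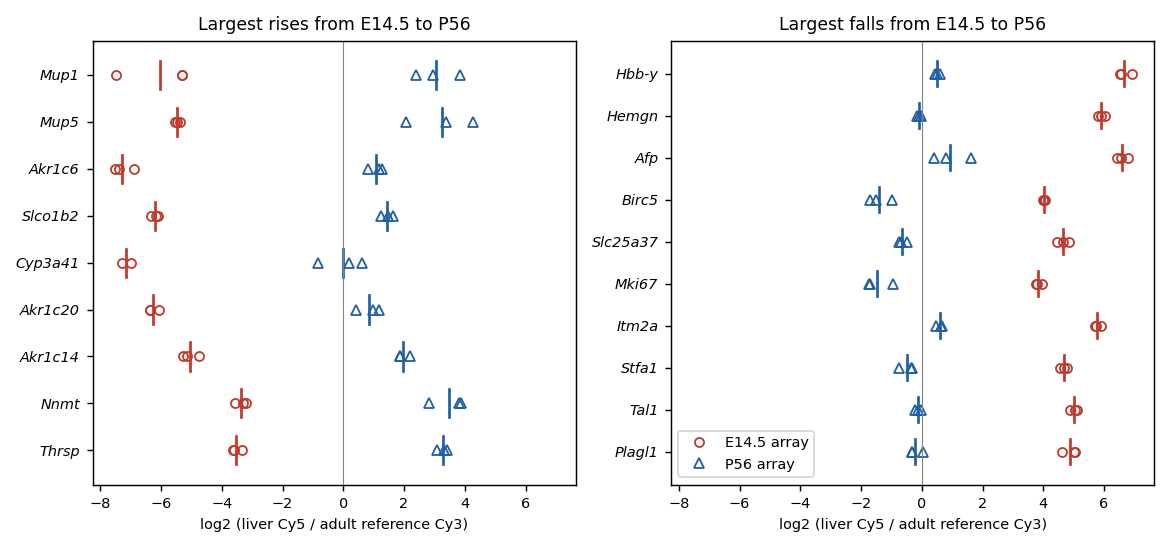
Log2 ratio to the adult reference for 9 of the 10 named genes with the largest rise (left) and the 10 with the largest fall (right), with circles for E14.5 arrays, triangles for P56 arrays and bars for the stage means. The E14.5 points of Mup1 lie between -7.48 and -5.31 and those of Hbb-y between 6.51 and 6.93. The stages do not overlap in any gene shown, which was a condition for being taken.

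Promoters of strongly changed genes were searched for short binding motifs of liver, blood and cell cycle factors, in the 250 bases before each RefSeq start and on both strands. The motifs were the HNF1 consensus, CAAAGTCCA or CAAAGGTCA for HNF4, TTGCNNAA for C/EBP, AGATAAG for GATA factors, CCACACCC for KLF factors, CCAAT for the CCAAT box, and TTTCGCGC or TTTGGCGC for E2F. The table held 32851 windows of 27025 genes, and 10677 of the 16704 genes tested were matched. One window is shown for each of 5 motifs, from genes with large changes, with the matches in capitals, 5′ to 3′, from RefSeq on GRCm38.p6.
Sult1d1 (HNF1 motif), chr5:87569007-87569256, minus strand: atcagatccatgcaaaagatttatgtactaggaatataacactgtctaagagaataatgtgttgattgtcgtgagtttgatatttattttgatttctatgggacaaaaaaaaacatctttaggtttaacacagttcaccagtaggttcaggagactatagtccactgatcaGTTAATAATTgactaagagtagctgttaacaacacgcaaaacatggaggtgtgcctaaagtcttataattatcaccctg
Pon1 (C/EBP motif), chr6:5193947-5194196, minus strand: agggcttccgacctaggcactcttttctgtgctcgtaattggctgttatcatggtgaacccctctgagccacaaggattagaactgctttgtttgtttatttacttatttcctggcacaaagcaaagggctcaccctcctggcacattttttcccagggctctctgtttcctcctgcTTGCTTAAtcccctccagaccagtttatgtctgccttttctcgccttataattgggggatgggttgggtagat
Itm2a (GATA motif, reverse strand), chrX:107403361-107403610, minus strand: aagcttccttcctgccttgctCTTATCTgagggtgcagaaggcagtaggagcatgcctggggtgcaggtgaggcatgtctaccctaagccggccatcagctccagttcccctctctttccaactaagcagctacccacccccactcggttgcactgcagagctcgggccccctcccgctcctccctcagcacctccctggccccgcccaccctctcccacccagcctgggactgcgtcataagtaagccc
Hbb-y (CCAAT box), chr7:103853208-103853457, minus strand: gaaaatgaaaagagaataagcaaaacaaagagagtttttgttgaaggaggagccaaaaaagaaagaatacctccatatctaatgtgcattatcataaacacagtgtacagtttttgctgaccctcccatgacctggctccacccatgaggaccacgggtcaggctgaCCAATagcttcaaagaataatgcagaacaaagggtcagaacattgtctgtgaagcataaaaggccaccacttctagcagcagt
Mcm6 (E2F motif, 3 matches, a pair of them overlapping on opposite strands), chr1:128359706-128359955, minus strand: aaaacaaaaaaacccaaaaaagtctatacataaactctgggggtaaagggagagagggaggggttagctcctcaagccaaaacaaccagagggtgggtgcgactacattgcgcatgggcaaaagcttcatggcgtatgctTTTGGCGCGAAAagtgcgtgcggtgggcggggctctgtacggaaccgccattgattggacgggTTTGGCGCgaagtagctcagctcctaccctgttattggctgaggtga

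These genes moved as follows. Sult1d1, a sulfotransferase, was higher at P56 by 6.78 and Pon1, an antioxidant enzyme of lipoproteins, by 6.57, whereas Itm2a, Hbb-y and the replication helicase gene Mcm6 (-4.59, with 1 E14.5 value missing) were lower. The HNF1 motif was in 3.43% of the windows of genes higher by 3 or more on the log2 scale (11 of 321), in 0.526% of those lower by 3 or more, in 0.112% of the alike genes and in 0.371% of all promoters. The HNF4 motif was in 4.05%, 0%, 0.168% and 0.807% of the same sets. C/EBP matches were found in 15.0% of the strongly higher set and 6.84% of the strongly lower set, against 9.56% of all. The CCAAT box, with 38.3%, 56.3% and 33.8%, and the E2F motif, with 0.623%, 4.74% and 0.654%, were more frequent in the strongly lower set. GATA matches were as frequent in the higher (3.74%) as in the lower set (3.68%), against 2.74% of all. KLF matches were in 0.935% and 4.21%, against 3.20% of all. Shares of all, and the third values for CCAAT and E2F, are over all promoters, including genes not tested. Over windows of the genes tested they were 0.355% (HNF1), 0.858% (HNF4), 8.22% (C/EBP) and 35.0% (CCAAT). For E2F, GATA and KLF they were 1.09%, 2.0% and 3.45%. Among alike genes C/EBP, CCAAT, E2F, GATA and KLF matches were in 7.11%, 34.1%, 1.4%, 1.57% and 3.97%. A match is a description of letters and was not tested as a binding site.

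Genes of the fetal growth program were uniformly lower at P56. All 17 oncofetal and imprinted growth genes tested were called lower, 16 of them at least 2-fold, with a median difference of -3.53. The median of the list was 3.27 to 3.28 on the E14.5 arrays and -0.09 to 0.00 on the P56 arrays, and 8 of the 17 were not above background on any P56 array. Igf2, the fetal growth factor, was at 3.62, 3.76 and 3.74 and then at 0.51, -0.01 and -0.11 (-3.57). Mest, an imprinted gene expressed from the paternal copy, differed by -4.80 and the Notch-related protein gene Dlk1 by -4.73. The stages did not overlap in these genes.

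Blood cell genes separated by lineage. Of 24 genes for erythroid regulators and red cell membrane proteins all 24 were lower at P56, each at least 2-fold, with a median of -3.44. Their median was 3.28 to 3.40 on the E14.5 arrays and -0.10 to -0.04 on the P56 arrays, and 13 were not above background on any P56 array. Rhd, a blood group antigen, was among the latter. It differed by -4.60 as a ratio and was at least 243-fold lower in Cy5. The 5 globin genes tested were all lower (median -3.73, and -7.09 in Cy5 alone). Hba-x differed by -3.73 as a ratio and was at least 128-fold lower in Cy5. Neither Hba-x nor Hbb-bh1 was above background on any P56 array. The Cy3 channel alone was also lower on the P56 arrays for Rhd (-3.29) and Hba-x (-3.24). Of 9 haem synthesis enzymes 8 were lower (median -2.24), such as Cpox (-2.72) and the erythroid first enzyme Alas2, at 2.33, 2.31 and 2.47 and then at 0.58, -0.98 and -0.82. The exception was Alas1, the form used outside red cells, which went from -2.99, -3.14 and -3.04 to 0.22, 0.17 and 1.17.

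Stem and progenitor genes were lower in 7 of 9 cases (median -1.12, and -2.64 with Feature Extraction's processed signals), among them Lyl1 (-4.30), Cd34 (-2.49) and Myb, which was not above background on any P56 array and was at least 11.7-fold lower, and none was higher. Megakaryocyte and platelet genes were lower in 10 of 11 cases (median -1.38, and -3.17 with the processed signals), led by the platelet chemokines Cxcl4 (-4.38) and Cxcl7 (-3.53). The call against them, Itgb3 at 1.25, came from 1 of 2 probes and stood at -2.43 on the other. Neutrophil and granule genes were lower in 7 of 12 (median -0.66, and -2.25 with the processed signals). Mpo, the granule peroxidase, was at 1.15, 0.85 and 1.26 and then at -3.28, -2.33 and -2.91, below the adult reference. The receptor gene Csf3r (0.89) and Lcn2 (0.75), which binds siderophores, were higher, although Lcn2 lost its call with median centring.

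T and NK cell genes were mostly higher at P56, whereas B cell precursor genes were mostly not called. Of 12 T and NK cell genes 9 were higher and none lower (median 0.80, from 0.22 with median centring to 1.55 with the processed signals), for example Cd3e, part of the T cell receptor complex, from -0.78, -0.80 and -0.80 to 0.61, 0.24 and 0.42. Granzyme A (Gzma) differed by 1.29 and Cd3d by 1.16, but neither these 2 nor Cd3e passed the test with median centring. Of 11 B cell precursor genes 3 were higher (27.3%, against 36.2% of all genes) and 8 not called (median 0.13, and 0.89 with the processed signals). Of these 11 genes 6 were not above background on any E14.5 array. Dntt, the enzyme that adds bases at antigen receptor joints, was the largest of them, from -1.26, -1.78 and -1.41 to 0.54, 2.04 and 1.63.

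Cell division genes were lower without exception among replication and mitosis factors. All 22 DNA replication genes (median -3.05) and all 25 mitosis genes (median -3.48) were at least 2-fold lower at P56. Mcm4, a subunit of the replicative helicase, was at 3.41, 3.37 and 3.56 and then at -1.39, -0.98 and -1.31. Birc5, which guides chromosome segregation, was at 4.07, 4.03 and 4.00 and then at -1.71, -0.97 and -1.50. The P56 arrays were thus below the adult reference in both genes, and 11 of the 25 mitosis genes were not above background on any P56 array. Of 14 cyclins and CDK inhibitors 9 were lower, such as Ccne1 (-3.19, with 1 E14.5 value missing), Ccnd3 (-2.98) and Cdkn2d (-2.70). Cdkn2c was called higher at 0.46, but stood at -0.43 with median centring. Of 12 genes for DNA methylation and Polycomb enzymes 9 were lower, with the maintenance methylation factor Uhrf1 at least 33.1-fold lower and the histone methyltransferase Ezh2 lower by 2.46. Bmi1 was the 1 member higher, at 0.65, and stood at -0.03 with median centring.

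Genes of the supporting cells moved in mixed directions. Of 23 stellate, mesenchymal and collagen genes 16 were lower (median -0.61, and -1.55 with the processed signals). The collagen I genes Col1a1 and Col1a2 were lower by 3.51 and 2.88, and Col1a1 went from 1.1, 1.49 and 1.19 to -2.09, -1.88 and -2.76. Against these, the retinol-storing enzyme gene Lrat was higher by 2.64 and the proteoglycan gene Dcn by 1.47. In the authors' table of ratios neither Col1a2 (-0.73) nor Dcn (0.31) passed the test. Among 18 endothelial genes 9 were higher and 1 lower, with a median of 0.31 that became -0.36 with median centring. Clec4g, a lectin of sinusoidal endothelium, differed by 3.44 and the Fc receptor Fcgr2b by 1.93, while Lyve1 (Xlkd1 on the array) fell by 1.09. Of 7 biliary genes 2 were higher and 2 lower (28.6% each, against 36.2% higher and 34.7% lower over all genes). Their median was -0.24, from -1.1 with the processed signals to 0.15 when all 6 arrays had to be above background. Spp1 was higher by 2.98 and Krt7 lower by 0.87.

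Resident macrophage genes were higher in 10 of 15 cases and lower in none (median 0.68, and 1.01 without P56 replicate 1, 0.49 without replicate 2 and 0.01 with median centring). The scavenger receptor Cd163 was at -2.70, -3.03 and -2.86 and then at -0.35, 0.14 and 0.10, and the Kupffer cell lectin Clec4f differed by 2.05. Of 20 interferon-stimulated genes 18 were higher (median 1.16, and 0.38 with median centring), led by the RNA sensor Ifih1 (2.57). Of 18 antigen presentation genes 15 were higher (median 1.12, and 0.39 with median centring). B2m, the light chain of class I molecules, was at -4.56, -4.69 and -4.63 and then at -1.82, -2.51 and -2.33. The median of the antigen presentation list was still -1.94 to -1.92 on the P56 arrays, so its typical member was below the adult reference at both ends. H2-Ab1, a class II chain, was called lower at -0.34, but its other probes gave 0.77, 0.97 and 1.25.

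**Figure D3:**
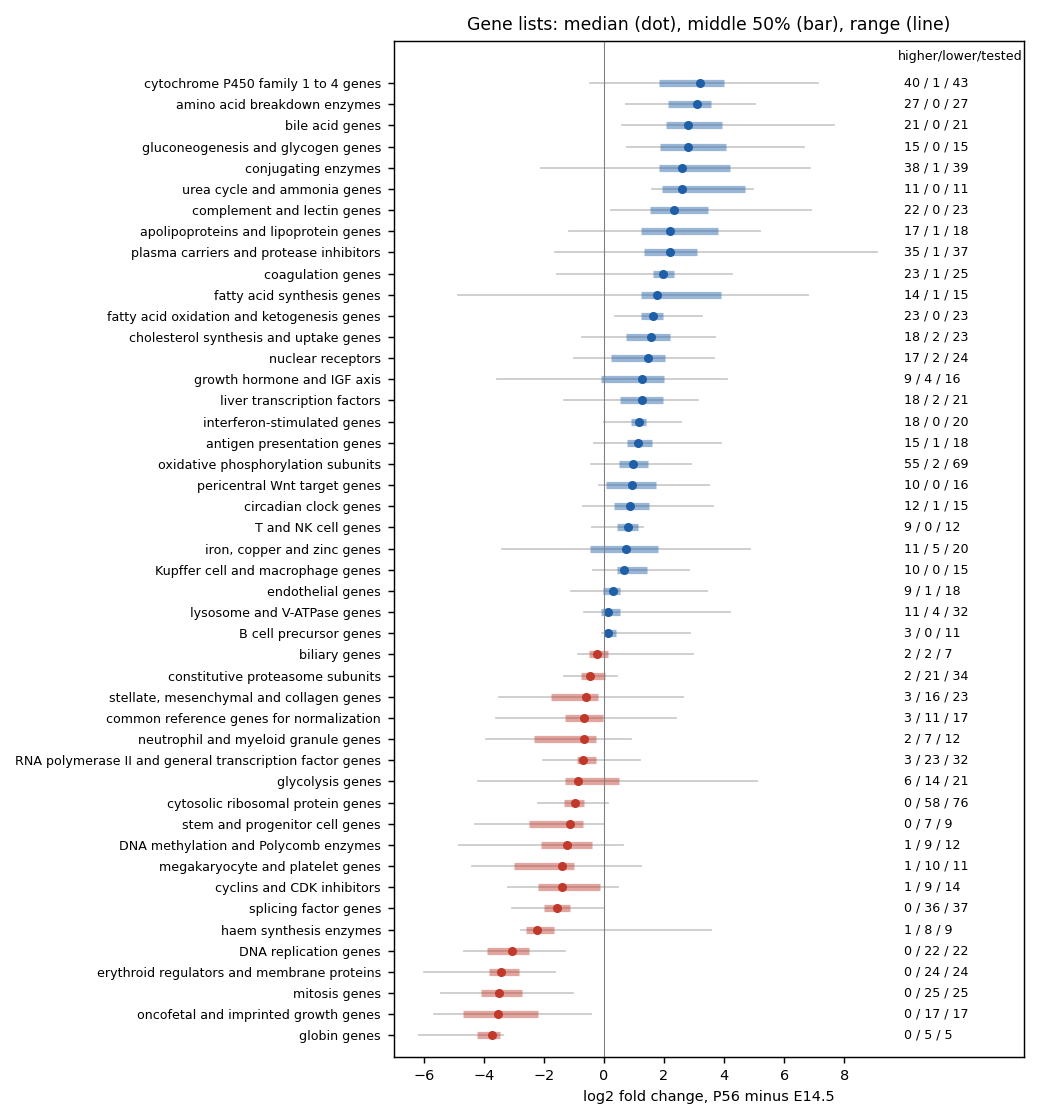
Log2 difference P56 minus E14.5 within each gene list, ordered by the median (dot), with the middle 50% of members (bar) and their range (line); the numbers at the right count members higher, lower and tested. Medians ran from -3.73 (globin genes) to 3.20 (cytochrome P450 genes), against 0.04 for all genes.

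Regulators of the hepatocyte program were mostly higher at P56. Of 21 liver transcription factors 18 were higher and 2 lower (median 1.26, and 0.51 with median centring). Cebpb was at -2.86, -2.94 and -2.94 and then at 0.34, 0.28 and 0.07, Zbtb20 differed by 2.90 and Foxa2 by 2.41. Gata6 (-1.32) and Lhx2 (-1.11) were lower. Among 24 nuclear receptors 17 were higher (median 1.48, and 0.70 with median centring), with the bile acid receptor Nr1h4 at 3.65, and the thyroid hormone receptor Thra (-1.01) lower. The retinoid X receptor gene Rxra was at -2.60, -2.73 and -2.72 and then at -1.12, -1.21 and -1.34 (difference 1.46 ± 0.10 SE, limma adjusted p = 1.37e-07).

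Circadian clock genes were higher in 12 of 15 cases (median 0.88, from 0.23 with median centring to 1.5 with Feature Extraction's processed signals), with Nr1d2 at 3.63 and the activator Arntl lower at -0.69. The times of day of collection are not given in the sources used here. In the growth hormone and IGF axis 9 of 16 genes were higher and 4 lower (median 1.27, and 0.56 with median centring). Igf1, the postnatal growth factor, was at -3.89, -3.99 and -4.10 and then at 0.03, 0.05 and 0.22, and the growth hormone receptor Ghr differed by 3.77. The beta-catenin gene Ctnnb1 was lower, at 0.14, 0.38 and 0.27 and then at -0.32, -0.96 and -0.77 (difference -0.94 ± 0.15 SE, limma adjusted p = 1.06e-04). Of 16 genes that are known Wnt targets around the central vein 10 were higher and none lower (median 0.93, and 0.14 with median centring), for example Cyp2e1 (3.5), the glutamate transporter Slc1a2 (2.87) and Lect2 (2.22).

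The study's own pathway lists were also counted, and since they were chosen in the work that includes these samples they are not independent evidence of direction. Of 78 genes of its RXR-alpha list 70 were higher, 2 lower and 6 not called (median 2.03, and 1.26 with median centring), led by Fbp1 (6.66), Pon1 (6.57) and Fabp1, which was saturated at P56 and at least 20.1-fold higher. Of 57 genes of its Wnt list 35 were lower, 9 higher and 13 not called (median -0.43, and -1.14 with median centring), and 10 were alike. The phosphatase subunit gene Ppp2r1b was lower by 1.79. Apc, which takes part in beta-catenin degradation, was called higher at 1.65, but its other probes gave 0.37, -0.10 and -0.02.

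Metabolic enzymes of the hepatocyte were higher at P56 almost throughout. All 11 urea cycle and ammonia genes were at least 2-fold higher (median 2.59). Arginase, Arg1, was at -4.0, -4.11 and -4.07 and then at 1.15, 0.67 and 0.95. All 27 amino acid breakdown enzymes (median 3.09) and all 15 gluconeogenesis and glycogen genes (median 2.80) were higher, with the glycine methyltransferase gene Gnmt at 4.64 and the tryptophan dioxygenase gene Tdo2 at 4.25. G6pc, which releases free glucose, was at -3.14, -3.47 and -3.39 and then at 2.14, 0.05 and 0.89, with P56 replicate 1 well above the other two.

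Enzymes for foreign compounds and bile acids rose likewise. Of 43 cytochrome P450 genes 40 were higher, all of them at least 2-fold, and 1 was lower (median 3.20). Cyp2j5 was at -5.64, -5.73 and -5.69 and then at 0.07, -0.20 and -0.27. The exception, Cyp1b1 (-0.47), was not well above background on any P56 array and lost its call in several refits. Of 39 conjugating enzymes 38 were higher (median 2.61), led by Nnmt, Sult1d1 and Ugt2a3 (6.61), and Gstm5 was lower by 2.08. All 21 bile acid genes were higher (median 2.80). Cyp7a1, the rate-limiting enzyme of bile acid synthesis, was at -3.17, -3.46 and -3.31 and then at 2.26, 2.28 and 2.53, and the conjugating enzyme gene Baat differed by 5.77.

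Lipid genes were higher with few exceptions. All 23 fatty acid oxidation and ketogenesis genes were higher (median 1.63), for example Etfdh (2.52), which passes electrons to the respiratory chain, and so were 14 of 15 fatty acid synthesis genes (median 1.76, from 0.96 with median centring to 2.98 with the processed signals). The exception was Scd2, a desaturase, at 3.73, 3.69 and 3.76 and then at -1.31, -0.88 and -1.2. Of 23 cholesterol genes 18 were higher (median 1.56, and 0.95 with median centring), such as Sc5d (3.71), and 2 were lower, such as the regulator Srebf2 (-0.73). Apolipoprotein and lipoprotein genes were higher in 17 of 18 cases (median 2.21), with Apoc4 at 5.21 and Apoc3 at 4.80. Lpl, which hydrolyzes triglycerides in vessels, was lower by 1.16.

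Secreted proteins followed the same course. Coagulation genes were higher in 23 of 25 cases (median 1.97), complement and lectin genes in 22 of 23 (median 2.34) and plasma carriers and protease inhibitors in 35 of 37 (median 2.19). Antithrombin, Serpinc1, was at -3.93, -4.07 and -4.05 and then at 0.43, -0.12 and 0.05. C4bp, which binds complement C4b, differed by 6.53 and the mannose-binding lectin Mbl2 by 3.95. The members called lower were F13a1 (-1.56), a subunit of factor XIII that is known from platelets and macrophages, and Serpina6 (-1.63), the corticosteroid carrier. Alb1, the albumin gene, was higher by 1.23 only, at -1.95, -1.74 and -1.50 and then at -0.48, -0.63 and -0.41. Among 20 iron, copper and zinc genes 11 were higher and 5 lower (median 0.72, and 0.25 with median centring), with the iron hormone genes Hamp1 (3.55) and Hamp2 (4.85) on one side and metallothionein Mt2 (-3.41) and the transferrin receptor Tfrc (-3.16) on the other.

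Pairs of related genes, with a member listed as fetal and the other as adult, were set against each other within each array. These labels were given when the pairs were listed and were not tested, and not every pair is a fetal and an adult form. All 16 pairs had arrays of the 2 stages that did not overlap in the difference (exact two-sided permutation p = 0.1 each, the smallest that 3 against 3 arrays allow, so no pair could pass 0.05). Taken singly, 75.7% of all genes tested did not overlap, and the share among other pairs of genes was not counted. The largest shift was from Scd2 to Scd1, with Scd1 higher by 4.09 while Scd2 was lower by 4.85, a shift of 8.94. Igf2 to Igf1 shifted by 7.67 and the glucose transporters Slc2a1 to Slc2a2 by 7.60. Slc2a1 was at 3.31, 3.43 and 3.42 and then at -1.28, -0.49 and -0.63, whereas Slc2a2 was at -3.53, -3.83 and -3.26 and then at 0.41, -0.58 and -0.22. Afp to Alb1 shifted by 6.89 as measured, with Afp saturated at E14.5, Alas2 to Alas1 by 6.35, and the transferrin receptors Tfrc to Trfr2 by 4.88. Each of these pairs had its members on opposite sides.

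Other pairs shifted by unequal change in 1 direction or by 1 member alone. Both Acaca (1.15) and Acacb (4.40), the acetyl-CoA carboxylases, were higher, and both Ldhb (-2.65) and Ldha (-1.16), the lactate dehydrogenases, were lower. Ezh2 was lower by 2.46, while Ezh1 was not called (-0.09) and was not well above background on any P56 array. The pyruvate kinases Pkm2 and Pklr stood at -2.43 and 0.59, and Pklr turned to -0.26 with median centring. Of the 21 glycolysis genes 14 were lower and 6 higher (median -0.86, and -1.44 with median centring). The probe of Cyp3a16, named as the fetal partner of Cyp3a11, went against that role, since it was higher by 6.20 against 4.07 for Cyp3a11. Its P56 values (-0.83, 0.13 and 0.50) lay close to those of its relative Cyp3a41 (-0.82, 0.18 and 0.62). Whether this probe measured Cyp3a16 alone was not tested.

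**Figure D4:**
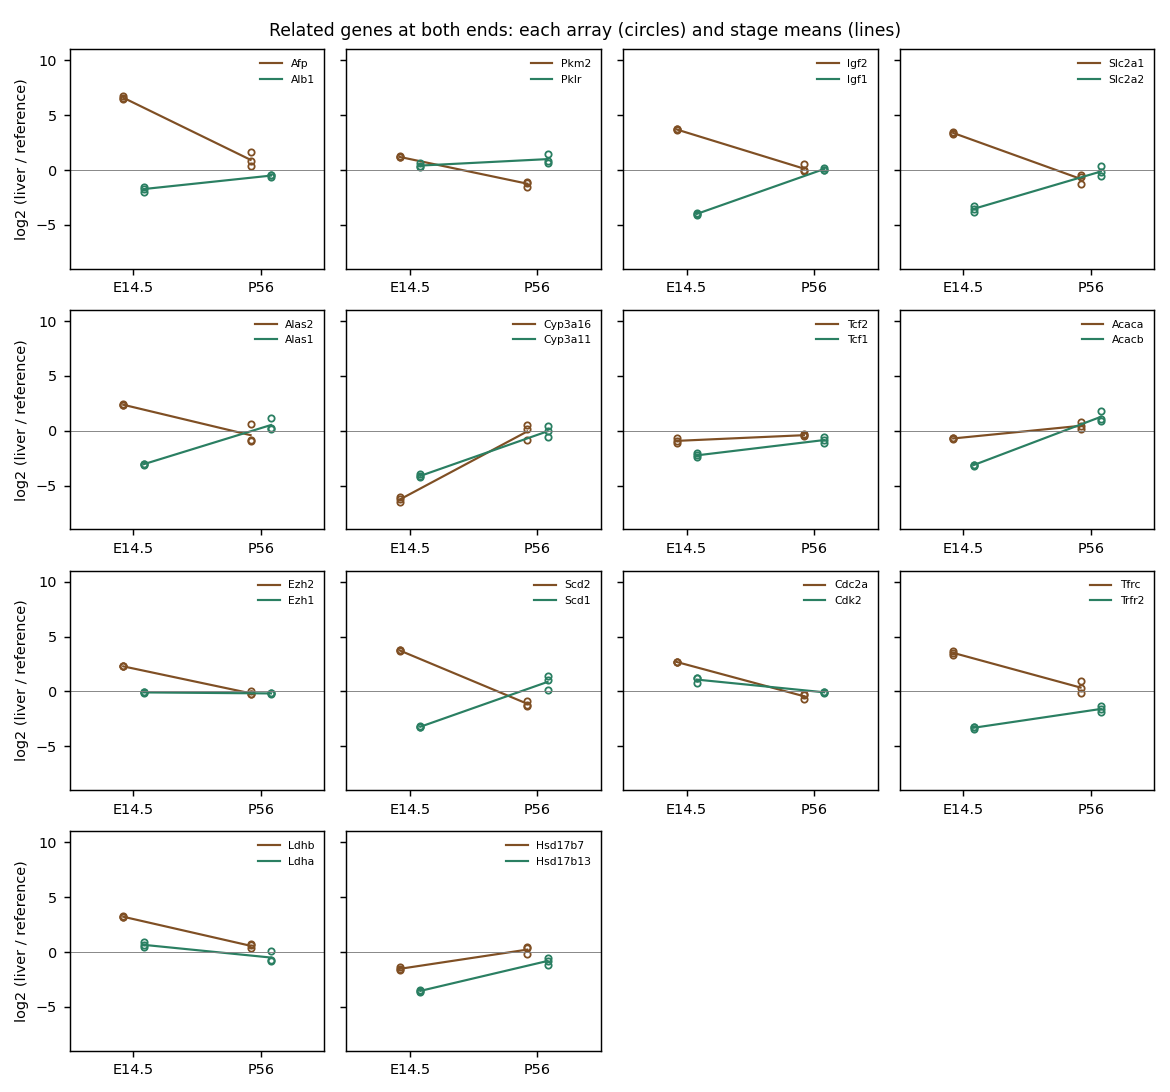
Log2 ratios to the adult reference of both members of 14 of the gene pairs at E14.5 and P56, with a circle for each array and lines between the stage means. Scd2 lies above Scd1 at E14.5 (3.69 to 3.76 against -3.28 to -3.19) and below it at P56 (-1.31 to -0.88 against 0.16 to 1.39).

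Genes that were alike at both ends made up 2104 of the 16704 (12.6%), of which 1551 had a symbol. Alike means that the 95% interval of the difference lay within 0.5 on either side of 0 and that the gene was well above background on all 6 arrays. Among them 1877 were not called and 227 were called with a small difference. A further 1075 genes were not called with a wider interval, so for these neither a difference nor likeness was shown. Fth1, the ferritin heavy chain that stores iron, was among the 10 brightest alike genes, at -0.03, -0.02 and -0.02 and then at -0.11, 0.10 and -0.02 (difference 0.01, 95% interval -0.24 to 0.26). The translation factor gene Eef1a1 was at 1.54, 1.59 and 1.64 and then at 1.32, 1.93 and 1.46. It lay above the adult reference at both ends, while the lysosomal protease gene Ctsb lay below it at both, at -1.60, -1.72 and -1.56 and then at -1.41, -1.41 and -1.65. Grn, Gpx1, Eif1, Atp5a1, Atp5o and Pomp were also among the 10 brightest, with differences of 0.03, 0.09, -0.08, 0.09, 0.21 and 0.19 (1 E14.5 value missing for Pomp). The other, dimmer probes of Grn and Atp5a1 gave 0.59 and -0.45. Pigt, the brightest, was saturated at E14.5, so its likeness is only a bound. Its other probe was far dimmer (mean log2 brightness 6.79 against 15.89) and gave 0.26, and whether the bright probe measured Pigt was not tested. Without P56 replicate 1, Atp5o (0.31) was no longer alike, and with an offset of 16 or Feature Extraction's processed signals Atp5o, Ctsb and Pomp were not. With median centring Eif1 and, of the genes below, Ctsd, Psmb3, Psmb4, Rpl27a, Hprt1, Spon2 and Matn2 were not alike.

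Housekeeping groups were not alike as a whole. Of 76 cytosolic ribosomal protein genes 58 were lower and 18 not called, with 1, Rpl27a, alike (median -0.95, and -1.19 without P56 replicate 2). Rpl3 was at 1.57, 1.80 and 1.77 and then at -0.87, -0.36 and -0.18. The median of the group ran from 0.21 to 1.28 over the P56 arrays, against 1.77 to 1.80 at E14.5. Splicing factor genes were lower in 36 of 37 cases (median -1.57), such as Hnrpa1 (-3.06) and Sfrs1 (-2.43), with Sf3a2 alike (-0.03). Other probes gave -0.38, -1.63 and -0.89 for Hnrpa1 and -1.15 for Sfrs1. Of 32 RNA polymerase II and general transcription factor genes 23 were lower and 3 higher (median -0.71, and -1.36 with median centring), with Gtf2e2 at -2.03 and Polr2k at 1.2. Oxidative phosphorylation subunits were higher in 55 of 69 cases (median 0.96, and 0.43 with median centring), led by Ndufa4 (2.91). Of the 69, 12 were alike, among them Atp5o and, on its brighter probe, Atp5a1. Atp5b was lower by 0.35, a call lost without P56 replicate 3.

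The proteasome and lysosome lists held several alike genes, to be read beside the 12.6% over all genes. Of 34 constitutive proteasome subunits 8 were alike, 21 lower and 2 higher (median -0.47, and -1.17 with median centring). Psmb3 was at 0.06, 0.01 and -0.12 and then at -0.05, 0.19 and 0.04, and Psmb4 differed by -0.05, whereas the cap subunit gene Psmd1 was lower by 1.34. Of 32 lysosome and V-ATPase genes 12 were alike, 11 higher (34.4%, against 36.2% of all genes) and 4 lower. Their median of 0.14 became -0.54 with median centring. The protease gene Ctsd was at -1.30, -1.40 and -1.28 and then at -1.26, -1.25 and -1.21, whereas the membrane protein gene Lamp2 was higher by 4.21. Among 17 genes often used as references for normalization 11 were lower, 3 higher and 2 alike (median -0.65, and -1.14 with median centring). Hprt1 was alike at -0.10, whereas Tuba1 (-3.58) and B2m (2.40) were not.

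Genes alike at the ends were called in between at shares close to those of all genes. Of the 2104 alike genes, 416 lay above and 636 below the mean of the ends at E18.5 (51.2% of all genes were called in that contrast), 60 of them at least 2-fold away, and 304 lay above and 346 below it at P5 (31.2% of all), 34 at least 2-fold away. Spon2, an extracellular matrix protein gene, was at -1.07, -1.12 and -1.18 and at -1.38, -1.10 and -1.46 at the ends but at a mean of 1.03 at E18.5, and Matn2 stood at 1.66 at E18.5 with a difference of 0.02 between the ends.

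Set against the adult reference, E14.5 livers were farther away than P56 livers. At E14.5, 6418 genes were above and 6379 below the reference (76.6% called, 5177 of them at least 2-fold), and at P56 4407 above and 5098 below (56.9% called, 1930 at least 2-fold). Dye bias is part of both, since no dyes were swapped. The Cy3 channel, to which the labels assign the same reference RNA on every array, was then compared between the P56 and the E14.5 arrays. There 999 genes (5.98%) were called, 77 of them at least 2-fold, and 67 of these 77 were lower on the P56 arrays.

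The 77 genes included several of the strongest falls. Hbb-bh1, an embryonic globin gene, had a Cy5 signal of 15.10, 15.38 and 15.16 (log2) on the E14.5 arrays and of 6.02, 6.29 and 6.10 on the P56 arrays. In the Cy3 channel of the same arrays it was at 11.12, 11.19 and 11.03 and then at 6.31, 6.29 and 6.30, and the source of the signal on the E14.5 arrays was not tested. The difference was therefore -9.08 in Cy5 alone and -4.21 as a ratio. Igf2 gave -7.92 in Cy5 alone against -3.57 as a ratio, Dlk1 -8.77 against -4.73, and Afp -7.37 against -5.66. For Mup1, with 6.16 in Cy5 alone against 9.10 as a ratio, and for Hbb-b1, with -1.48 against -3.36, the ratio was the larger. In 62 of the 77 genes Cy5 alone was called in the same direction as Cy3. Of the 11844 calls made on the ratio, 10924 were also made in the same direction in Cy5 alone on the same probes and 0 in the opposite direction. When the brightest probe of a gene was chosen anew in Cy5, 5430 genes remained higher and 5471 lower, and 13 calls were opposite.

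**Figure D5:**
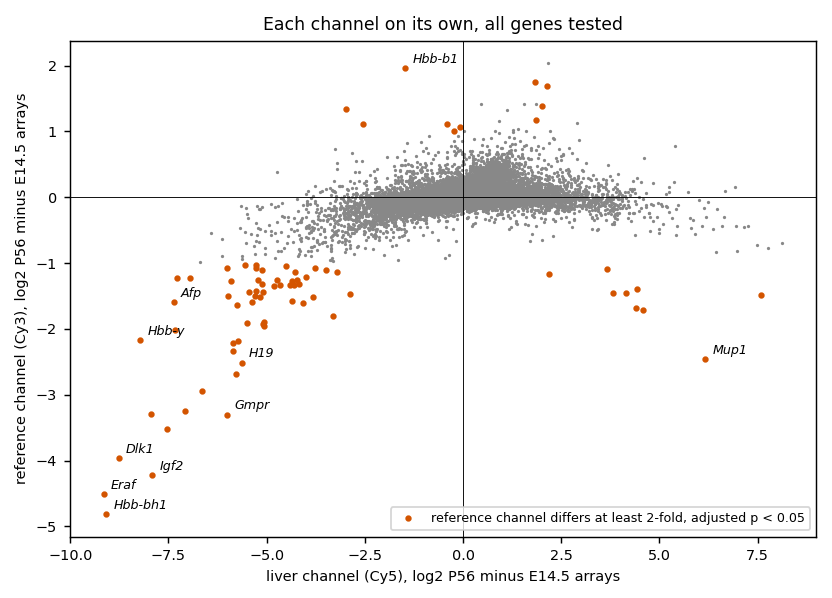
Log2 difference between the P56 and the E14.5 arrays in the reference channel alone (Cy3, vertical axis) against the liver channel alone (Cy5, horizontal axis), a point for each of the 16704 genes tested, with the 77 genes whose reference signal differed at least 2-fold in orange. Hbb-bh1, at -9.08 in Cy5 and -4.81 in Cy3, lies at the lower left, and most orange genes are below 0 in both channels.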

How the data were processed

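RNA of mouse liver was hybridized by the authors against adult liver reference RNA on 2-color Agilent arrays, and the deposited scanner files give each spot's intensity per channel (Feature Extraction 9.5.1.1, probe coordinates in mm7). A deposited table of the authors' lowess log2 ratios per gene served as an alternative. Background was corrected with normexp (offset 50), ratios were normalized by loess within arrays, and 1 probe, the brightest, stood for a gene. Genes well above background on all arrays of at least 1 stage, with at most 1 value missing a stage, were tested with limma 3.58.1 (R 4.3.3) on all 11 arrays, with Benjamini-Hochberg adjustment over 16704 genes (threshold 0.05). The scripts were tested on simulated data. The 51 gene lists (1125 genes, 1081 tested), the pairs and the comparison were chosen with earlier results of these data known, so lists carry no p-value. Named genes are the 10 largest rises and falls with a symbol, the 3 largest and up to 2 opposite members of each list, the brightest alike genes, all pairs, and Rxra, Ctnnb1, Afp and Alb. The rises and falls came only from called genes without overlap between the stages, well above background on all 3 arrays of the high end. Of the genes, 11733 accessions matched RefSeq. Replicate numbers did not pair the samples: deviations of same-numbered arrays correlated at -0.08, 0.03 and -0.05. Alternatives covered background, normalization, channel, brightness filters, probes, weights, blocks, thresholds and leaving out each array. Array number limits the precision. Some genes are not reported here.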

Additional observations from a re-analysis of the deposited data

How the results depend on the processing

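Directions held for most results, and sizes depended on the scaling and the offset. With median centring, 2450 genes were higher, 8234 lower and 1600 alike, with 22.9% of the calls upward against 51.0%, and 414 calls turned. The biliary median turned to 0.15 with all 6 arrays above background. The endothelial (-0.36) and lysosome (-0.54) medians turned with median centring, as did Bmi1 (-0.03), Cdkn2c (-0.43), Pklr (-0.26), Psma3 (-0.25) and Psmb6 (-0.11). Psma3 was at -0.02 in Cy5 alone. H2-Ab1 turned to 0.91 and Itgb3 to -0.69 in the authors' table, and to 0.66 and -0.59 as the mean over probes. The number of alike genes fell to 799 with Feature Extraction's processed signals, to 557 in the authors' table and to 1365 with an offset of 16 (where the median of all genes was 0.12), and it was 5865 with an interval within 1 and 483 within 0.3. Asking for all 6 arrays above background left 5041 genes higher and 3729 lower, and the median of the 11403 genes tested was 0.17. This filter leaves out probes dim at either end. In the main fit 1218 genes were above background on every E14.5 and no P56 array, against 291 for the reverse. With a 2-fold minimum 2542 were higher and 2358 lower, and with limma's treat test of a change above 1, 1622 and 1446. Leaving out 1 array at a time gave 5442 to 5946 higher, 5437 to 5691 lower and 1693 to 1985 alike. The replicate block gave 5850 higher, 5673 lower and 1988 alike, and with it calls such as those of Cyp1b1 and Psma3 were lost. With the scan as a random block 5261 were higher and 5237 lower, and a fixed block could not be fitted. The methods' t-test at its threshold gave 5769 higher and 5579 lower, and 5324 and 5245 after Benjamini-Hochberg. Over named genes and settings, 4993 values kept their call or stayed uncalled, 95 lost a call, 42 gained one and 10 turned. Direction was compared only for genes called in the main fit, so a change of sign in an uncalled gene was not counted. Elsewhere the cause was not tested. Dim genes are limited by background: 298 were dim on every array of both stages.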

Other observations

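Genes known to differ between male and female liver were higher at P56 in both lists, and they split the P56 arrays. All 9 genes known as higher in male liver were higher at P56 than at E14.5 (median 2.69, and 2.04 without P56 replicate 1 and 4.27 with Feature Extraction's processed signals), and so were 11 of 12 known as higher in female liver (median 2.81). Cyp2b9, known as higher in female liver, was at -4.13, -4.29 and -4.21 at E14.5 and at -2.03, -0.51 and -0.47 at P56, lowest in replicate 1. Elovl3 and Hsd3b5, known as higher in male liver, stood at 2.69, 0.29 and 0.61 and at 2.53, 0.36 and 0.83 on the same arrays, highest in replicate 1. Cyp7b1 was at 1.73, -0.39 and 0.08. At E14.5, where Xist separated replicate 2 from the others, Elovl3 was at -1.11, -1.31 and -1.23 and Cyp2b9 did not set that replicate apart. The part of sex in the other differences was not tested.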
